A study of Mus musculus with 7 samples.

Results

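The miR-99/100 and miR-125 family is a set of mature miRNAs from 3 genomic clusters, whose 5p strands carry 1 of 2 seeds. Its members were chosen by name, as the miR-99a, miR-99b, miR-100, miR-125a and miR-125b 5p strands and the 3 miR-125 3p strands, and 8 of the 640 miRNAs counted in the series were members. The counts come from small RNA that was pulled down with Ago2 from mouse plasma after status epilepticus (SE), to ask which circulating Ago2-bound miRNAs change as epilepsy develops. There were 7 libraries, 1 per condition. Each was a pool of plasma from 10 mice of the c57 strain, which the study's methods describe as adult male C57BL/6JOlaHsd animals.

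The control groups were mice given PBS into the amygdala and sampled at 4 h (control 4 h), 8 h (control 8 h) and 24 h (control 24 h). The SE groups were mice given kainic acid into the amygdala and sampled at 4 h (SE 4 h), 8 h (SE 8 h), 24 h (SE 24 h) and 2 weeks (SE 2 weeks). Per the methods, a benzodiazepine (midazolam or lorazepam) was given after kainic acid to lower mortality and morbidity. A control at 2 weeks was not analysed here, and SE 2 weeks was set against control 24 h, as in the methods, so the comparisons at 24 h and 2 weeks share a control library. With 1 library per condition no difference between an SE library and its control has a replicate check, and the pooled mice cannot be separated.

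A miRNA is cut from a hairpin as a 5p and a 3p strand, 1 of which is usually kept by an Argonaute protein such as Ago2, and its seed directs it to target mRNAs. Mammals carry 3 copies of an ancient cluster in which a miR-99/100 gene, a let-7 gene and a miR-125 gene lie in that order. The miR-125 members are the relatives of worm lin-4 and, with let-7, are known for their part in developmental timing, while miR-99/100 is known to target components of mTOR signalling. In the adult brain miR-125b and miR-99a are abundant, and both families are also made in vascular, muscle and blood-forming cells. Plasma is a mixture of sources, so fewer releasing cells and less miRNA per cell cannot be told apart.

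All 8 members, and 551 of the 640 miRNAs counted, were found by name in the RefSeq miRNA table for GRCm38.p6. The mature strands of Mir100, Mirlet7a-2 and Mir125b-1 span chr9:41531437-41582001 on the plus strand, and in the GENCODE annotation those of Mir100 and Mir125b-1 lie within introns of the long non-coding gene 3110039I08Rik. Those of Mir99a, Mirlet7c-1 and Mir125b-2 lie at chr16:77598940-77646339, also on the plus strand, within introns of Mir99ahg. The third cluster is the most compact, with the mature strands of Mir99b, Mirlet7e and Mir125a inside 683 bp at chr17:17830194-17830876, plus strand. There miR-99b-5p lies in an intron of the protein-coding gene Spaca6 and miR-125a-5p in sequence annotated as an exon of it. Because miR-125b-5p is made from Mir125b-1 and from Mir125b-2, its reads cannot be assigned to chromosome 9 or 16, whereas miR-125b-1-3p and miR-125b-2-3p each mark 1 hairpin.

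The 5p sequences are shown because they set which members could exchange reads and which share a seed (bases 2 to 8, in capitals).
miR-99a-5p: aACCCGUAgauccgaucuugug
miR-100-5p: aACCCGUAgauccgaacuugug
miR-99b-5p: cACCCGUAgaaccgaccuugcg
miR-125a-5p: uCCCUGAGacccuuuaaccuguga
miR-125b-5p: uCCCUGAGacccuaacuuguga
miR-351-5p: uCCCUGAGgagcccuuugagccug
The seed ACCCGUA was carried by the 3 miR-99/100 members and by no other miRNA of the reference table. The seed CCCUGAG was carried by 5 miRNAs in the table, of which miR-125a-5p, miR-125b-5p and miR-351-5p had counts. Mature miR-99a-5p and miR-100-5p differ by U16A, counted from 1 at the 5′ end of miR-99a-5p. The authors' alignment allowed 2 mismatches, so reads could be split between these 2 members and their separate levels are uncertain. No other pair of members was within 2 changes of each other.

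The 3p strands of miR-125 do not share a seed, so each has its own capitals here.
miR-125b-1-3p: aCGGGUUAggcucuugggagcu
miR-125b-2-3p: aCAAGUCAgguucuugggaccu
miR-125a-3p: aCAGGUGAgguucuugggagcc
In the hairpin of Mir125b-1 (chr9:41581926-41582002, plus strand) both strands, in capitals, were counted as members.
Mir125b-1: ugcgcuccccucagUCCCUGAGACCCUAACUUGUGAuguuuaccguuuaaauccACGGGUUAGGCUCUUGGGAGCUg

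The control libraries held 2043220 (4 h), 3529563 (8 h) and 3412752 (24 h) counts. Those after SE held 5405357 (4 h), 3166964 (8 h), 3718313 (24 h) and 2541062 (2 weeks). Levels are given as CPM, the edgeR scale of counts relative to a library total, here adjusted with TMM (trimmed mean of M-values), with factors from 0.754 in SE 24 h to 1.22 in control 8 h. Counts of different miRNAs are not a ratio of molecules, since ligation and PCR differ between sequences, so ratios between members are compared only from library to library.

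Control 4 h stood apart from the other 6 libraries. Low counts gathered around a value of their own in every library, at 102 for control 4 h and from 33.1 to 60.2 elsewhere. Taken as the reads that 1 captured molecule gave, this clump equals 58.7 CPM in control 4 h, and in the rest from 8.83 CPM (SE 4 h) up to 16.1 CPM (SE 24 h). It puts the whole control 4 h library at 19982 captured molecules against 58665 to 143700 in the others. Control 4 h also had counts for 232 miRNAs, against 314 to 399. Many results that rest on it are therefore also given against the sum of control 8 h and control 24 h, and intervals on estimated molecules (counts divided by the clump) are given beside many folds and shares. Both were chosen after seeing the data. There were no molecular identifiers, so all intervals and floors cover counting error only.

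Together the members took 0.122% (4 h), 0.102% (8 h) and 0.0767% (24 h) of the counts of controls. After SE their share was 0.128% (4 h), 0.123% (8 h), 0.0539% (24 h) and 0.102% (2 weeks). The SE and control ranges overlapped. The lowest share was that of SE 24 h, but with TMM the lowest sum was that of control 24 h, at 663 CPM against 715 in SE 24 h. Nearly 3 in 4 member counts, 74.1%, were miR-125a-5p or miR-99b-5p, which ranked 63 and 66 of 640 by mean level. Over the 7 libraries miR-125b-5p came next at a mean of 81.1 CPM, followed by miR-125b-2-3p (48.7), miR-100-5p (47.7), miR-125b-1-3p (40.5), miR-99a-5p (34.2) and miR-125a-3p (11.3). The 6 lower means had SDs over libraries between 23.2 and 50.8 CPM, and most cannot be placed in a firm order. Each was below the leading pair, and miR-125a-3p was below miR-125b-5p and miR-125b-1-3p in all 7 libraries.

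**Figure D1:**
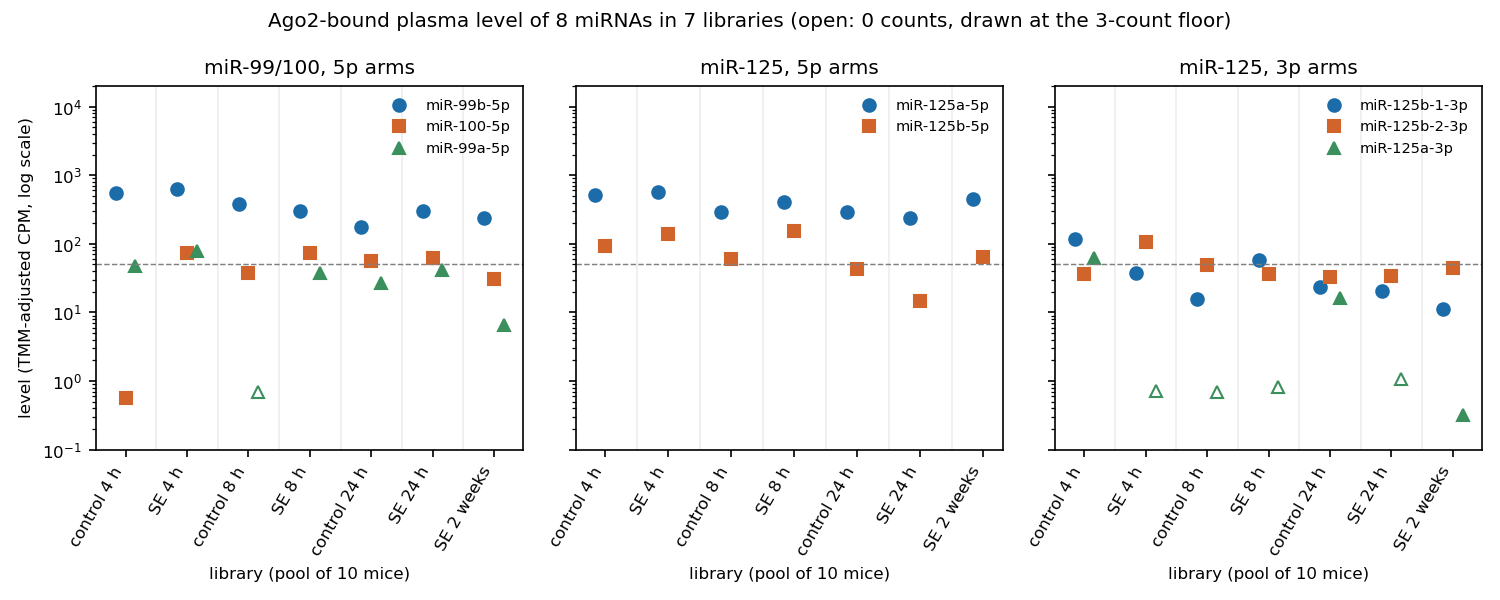
Level of each member in each library, in TMM-adjusted CPM on a log axis, with the 5p members of miR-99/100 and miR-125 in the left and middle panels and the miR-125 3p strands on the right. Open symbols are libraries with 0 counts, drawn at the 3-count floor, and the dashed line is 50 CPM. The leading pair lies between 176 and 623 CPM in all 7 libraries, whereas miR-100-5p falls to 0.574 CPM in control 4 h and miR-125b-5p to 14.6 CPM in SE 24 h.

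Folds between an SE library and its control were taken over miRNAs that reached 50 CPM in 1 or both, and those of 1.5-fold or more were counted. At 4 h all 8 members were compared. Of these, 4 were higher in SE (miR-99a-5p, miR-100-5p, miR-125b-5p and miR-125b-2-3p), where 32.3% of all 189 miRNAs compared were higher. Lower in SE 4 h were 2 members, miR-125b-1-3p and miR-125a-3p, beside 34.9% of all. The median log2 fold was 0.39 over the members, with the member at 0 counts taken at 3 counts, and −0.06 over all miRNAs compared. Of all miRNAs compared 61 were higher and 66 lower.

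At 8 h, 5 members reached the level needed, and 3 of them (miR-100-5p, miR-125b-5p and miR-125b-1-3p) were higher in SE, where 35.1% of 154 miRNAs were higher. Of those 5 members 0 were lower, beside 14.9% of all. The members' median log2 fold was 0.96 and that of all miRNAs 0.23. At 24 h only 3 members were compared. Among them 1, miR-99b-5p, was higher and 0 were lower, beside 24.8% higher and 19.9% lower of 141 miRNAs, with medians of 0.12 for the members and 0.04 for all. At 2 weeks 4 members were compared with control 24 h. There miR-125a-5p and miR-125b-5p were higher, where 18.6% of 145 miRNAs were higher, and miR-100-5p was lower, where 13.1% were lower. The medians were 0.50 and 0.01. A member that entered a comparison only through the library in which it was high had to differ, so these medians describe the members that were compared and not the whole family.

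No member was called in the same direction at all 4 time-points. Only the 3 members compared at 24 h (miR-99b-5p, miR-100-5p and miR-125a-5p) could have been. Calls that came at more than 1 time-point were those of miR-125b-5p (higher at 4 h, 8 h and 2 weeks) and miR-100-5p (higher at 4 h and 8 h, lower at 2 weeks). The call of miR-125b-1-3p was lower at 4 h and higher at 8 h. On estimated molecules the 95% interval of the fold (Clopper-Pearson, conditional on the sum) held 1 for each of these calls at every time-point, so 0 members kept a call when the interval also had to leave out 1.

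The control libraries show how far the same members moved without SE. Control 8 h differed from control 4 h in 4 of 5 members compared, all lower, and 59.3% of all miRNAs compared passed 1.5-fold either way. Control 24 h differed from control 4 h in all 6 members compared, 5 lower and 1 higher, beside 69.6% of all. Between control 24 h and control 8 h, 2 of 4 members passed, miR-100-5p higher and miR-99b-5p lower, beside 45.4% of all. On estimated molecules the intervals of miR-99b-5p left out 1 between controls, 0.228 to 0.966 for 24 h over 8 h and 0.136 to 0.911 for 24 h over 4 h. These libraries differ in time as well as in pool, and the 2 cannot be told apart.

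With control 8 h and control 24 h summed as the control, and control 4 h left out, 6 members were compared with SE 4 h and all 6 were higher (miR-99a-5p, miR-99b-5p, miR-100-5p, miR-125a-5p, miR-125b-5p and miR-125b-2-3p). Of these, miR-99a-5p, miR-100-5p and miR-125b-2-3p were under 50 CPM in that control. They entered only through SE 4 h, so they could not be lower. The members called lower against control 4 h, miR-125b-1-3p and miR-125a-3p, were under 50 CPM on both sides and were not compared. Of all 152 miRNAs compared there, 36.2% were higher and 13.2% lower, with a median log2 of 0.28, and the difference between members and all was not tested. The same sum gave the same 3 of 5 members as higher at 8 h, beside 52 higher and 33 lower of 157. Of these members miR-100-5p and miR-125b-1-3p entered only through SE 8 h. At 24 h the summed control ended the call of miR-99b-5p and gave 1 of 4 members, miR-125b-5p, as lower, beside 20.6% higher and 15.6% lower of 141. That member entered only through the control side. At 2 weeks the summed control gave miR-125a-5p alone of 3 members as higher, beside 15.9% higher and 17.2% lower of 145. There miR-100-5p was no longer compared, being under 50 CPM on both sides, at a log2 difference of −0.62.

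The most abundant members, miR-99b-5p and miR-125a-5p, lie at the ends of the chromosome 17 cluster. The level of miR-125a-5p was 516 (4 h), 292 (8 h) and 287 CPM (24 h) in controls, against 571 (4 h), 412 (8 h), 240 (24 h) and 444 CPM (2 weeks) after SE. It was highest in both 4 h libraries and lowest in SE 24 h, and SE levels overlapped those of controls. On the log2 scale SE differed from control by 0.15 (4 h, −0.01 with TMM over the 2 libraries alone), 0.50 (8 h), −0.26 (24 h) and 0.63 (2 weeks), and only the last passed 1.5-fold (1.55-fold, interval on estimated molecules 0.866 to 2.67). Behind it stood 1370 counts in SE 2 weeks and 1131 in control 24 h. With control 4 h in place of control 24 h the difference at 2 weeks turned to −0.22, and with control 8 h it was 0.60. Scaled by library size alone, SE 24 h was lower than its control by more than 1.5-fold (log2 −0.87), but that scaling moved the median of all miRNAs by −0.62.

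For miR-99b-5p the levels were 554 (4 h), 382 (8 h) and 176 CPM (24 h) in controls, against 623 (4 h), 296 (8 h), 302 (24 h) and 234 CPM (2 weeks) after SE. The controls alone covered a 3.14-fold range, from control 4 h down to control 24 h, and 3 of the 4 SE levels lay inside it. The log2 differences were 0.17 (4 h), −0.37 (8 h), 0.78 (24 h) and 0.41 (2 weeks). That at 8 h was 0.06 against control 8 h and control 24 h summed, so its direction turned, and −0.16 against all 3 summed. The 2-week difference turned negative with every other control, to −1.24 (control 4 h), −0.71 (control 8 h), −0.28 (8 h and 24 h summed) and −0.50 (all 3 summed). Of the 4 differences, that at 24 h alone passed 1.5-fold (1.71-fold, interval on estimated molecules 0.791 to 3.72). It rests on control 24 h, the lowest of the 7 libraries for this miRNA. Against control 8 h and control 24 h summed it was 0.09, against all 3 controls summed −0.13, and by library size alone 0.16.

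Within a library the pair can be compared without any scaling. Of the counts of the pair, miR-99b-5p took 51.8% (4 h), 56.6% (8 h) and 38.1% (24 h) in controls. It took 52.2% (4 h), 41.8% (8 h), 55.8% (24 h) and 34.5% (2 weeks) after SE. The share was lower in SE than in control at 8 h and higher at 24 h, and both SE and control libraries covered nearly the same span. On estimated molecules the interval in SE 2 weeks, 23.3% to 48.0%, overlapped that in control 8 h, 41.2% to 70.5%, although these were the lowest and highest shares. Here and for the other shares, overlap of 2 intervals does not show that the shares agree. The difference between 2 single libraries was not tested. Set 3 against 3 (4, 8 and 24 h), an exact two-sided permutation test gave p = 0.9, where 0.1 is the smallest p it allows.

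Their cluster partner let-7e-5p had 887 (4 h), 492 (8 h) and 527 CPM (24 h) in controls and 651 (4 h), 499 (8 h), 669 (24 h) and 507 CPM (2 weeks) after SE. It passed 1.5-fold at none of the 4 time-points. Of miR-125a-5p and let-7e-5p counts, miR-125a-5p made up 35.2% to 37.3% in the 3 controls. After SE it made up 46.7% (4 h), 45.2% (8 h), 26.4% (24 h) and 46.7% (2 weeks), so 3 SE libraries lay above all controls and SE 24 h below them by reads. On estimated molecules every SE interval overlapped those of controls, such as 23.6% to 49.1% in control 24 h and 15.5% to 39.7% in SE 24 h. The exact two-sided permutation p over the libraries of 4, 8 and 24 h was 0.8, with 3 libraries a side.

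The other miR-99/100 members come from chromosomes 9 and 16. For miR-100-5p control levels were 0.574 (4 h, 1 count), 37.6 (8 h, 162 counts) and 57.0 CPM (24 h, 225 counts). After SE they were 73.3 (4 h, 312 counts), 73.0 (8 h, 266 counts), 62.0 (24 h, 174 counts) and 30.4 CPM (2 weeks, 94 counts). The SE libraries of 4, 8 and 24 h were all above the 3 controls, while SE 2 weeks was below control 8 h and control 24 h. By library size alone the separation was lost, with control 24 h at 65.9 CPM against 57.7 in SE 4 h and 46.8 in SE 24 h. With TMM, levels that did not overlap between SE and control in this way were found for 16.8% of the 137 miRNAs that reached 50 CPM in 3 or more of the 6 libraries. The exact two-sided permutation p was 0.1 with 3 libraries a side, the smallest p this design allows, and the exact p was 0.4 by library size alone.

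At 4 h the ratio of SE to control was 128 for miR-100-5p, with a counting interval of 22.7 to 5059, because control 4 h held 1 read of it. This is far below the clump of 102 counts in that library, taken here as 1 molecule, so a level of 1 read has no counterpart in molecules. On estimated molecules (8 against 0) the lower end of the interval was 0.257. Against control 8 h and control 24 h summed the log2 difference at 4 h was 0.64. At 8 h it was 0.96 (1.94-fold, interval on estimated molecules 0.331 to 11.0), at 24 h 0.12 (−0.49 by library size alone), and at 2 weeks −0.90 (1.87-fold lower, with an interval of SE over control from 0.0844 to 3.41). The estimated molecules behind these levels were 3 (8 h) and 4 (24 h) for controls and 5 (8 h), 4 (24 h) and 3 (2 weeks) after SE.

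Its near-identical paralogue miR-99a-5p had 47.6 (4 h), 0 (8 h) and 26.9 CPM (24 h) in controls, against 79.6 (4 h), 37.1 (8 h), 42.1 (24 h) and 6.48 CPM (2 weeks) after SE. At each of 4, 8 and 24 h the SE level was above its own control, but SE 8 h and SE 24 h lay below control 4 h, so the groups overlapped. The fold at 4 h was 1.67 (339 counts against 83, log2 0.74), and it was under 1.5 with TMM over the 2 libraries alone. With control 8 h and control 24 h summed the log2 difference at 4 h was 2.63, and with all 3 controls summed 2.07. At 8 h the SE level was at least 53.3-fold higher, computed against 3 counts in control 8 h, which covers the counting of reads only. On estimated molecules, 3 against 0, the interval began at 0.422. Neither 8 h library reached 50 CPM, and SE 8 h held an estimated 3 molecules, so that fold was not counted as a call. The lowest level above 0, in SE 2 weeks, rested on 20 counts, fewer than the clump of 33.1 counts in that library.

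Since reads could be split between miR-99a-5p and miR-100-5p, their sum was also taken. It was 48.2 (4 h), 37.6 (8 h) and 83.9 CPM (24 h) in controls, against 153 (4 h), 110 (8 h), 104 (24 h) and 36.9 CPM (2 weeks) after SE. In the sum the SE libraries of 4, 8 and 24 h again lay above all controls and SE 2 weeks below them, but by library size alone SE 24 h (78.5) lay below control 24 h (97.0) and SE 2 weeks (44.9) above control 4 h (41.1). Within the sum miR-99a-5p took 98.8% (4 h), 0% (8 h) and 32.0% (24 h) of the counts in controls and 52.1% (4 h), 33.7% (8 h), 40.4% (24 h) and 17.5% (2 weeks) after SE. A share that runs from none to nearly all in 2 control pools rests on an estimated 1 (control 4 h) and 3 molecules (control 8 h).

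The seed partner of miR-125a-5p, miR-125b-5p, is the member best known from brain and is made from both the chromosome 9 and the chromosome 16 hairpin. Its levels were 91.8 (4 h), 60.3 (8 h) and 42.8 CPM (24 h) in controls, against 140 (4 h), 154 (8 h), 14.6 (24 h) and 64.5 CPM (2 weeks) after SE. SE libraries held both ends of the range, with SE 8 h and SE 4 h highest and SE 24 h lowest, and control levels lay between. The log2 difference was 0.61 at 4 h (1.52-fold) and fell under 1.5-fold by library size, by DESeq2 size factors and by TMM over the 2 libraries, at 0.49, 0.47 and 0.45. With other controls the 4 h difference was larger, at 1.43 (control 8 h and control 24 h summed) and 1.25 (all 3 summed). At 8 h the log2 difference was 1.35 (2.55-fold, 561 against 260 counts), with values from 1.23 to 1.57 under the other scalings and controls. On estimated molecules the 8 h interval was 0.831 to 12.1.

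At 24 h miR-125b-5p was under 50 CPM in both libraries and so was not among those counted. Its 41 counts in SE 24 h, against 169 in control 24 h, gave a log2 difference of −1.55, and those 41 counts are 0.907 of the clump of low counts in that library. Against control 8 h and control 24 h summed, where the control level did reach 50 CPM, it was lower by more than 1.5-fold. At 2 weeks the log2 difference was 0.59, just past the threshold. A prior count of 2 took it under the threshold, the sum of control 8 h and control 24 h gave 0.31, and control 4 h as the control turned it to −0.51.

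Among the counts of the miR-125 5p members, miR-125b-5p took 15.1% (4 h), 17.1% (8 h) and 13.0% (24 h) in controls. After SE it took 19.6% (4 h), 27.2% (8 h), 5.75% (24 h) and 12.7% (2 weeks). Controls were close to each other, and the SE libraries lay on both sides of them. The interval on estimated molecules was 14.6% to 43.9% in SE 8 h and 0.158% to 30.2% in SE 24 h, so the intervals of the extreme shares overlapped. All miR-125 5p counts together made up 45.7% to 55.9% of the 5p counts of the family in controls, and 47.8% (4 h), 58.2% (8 h), 38.5% (24 h) and 65.2% (2 weeks) after SE.

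**Figure D2:**
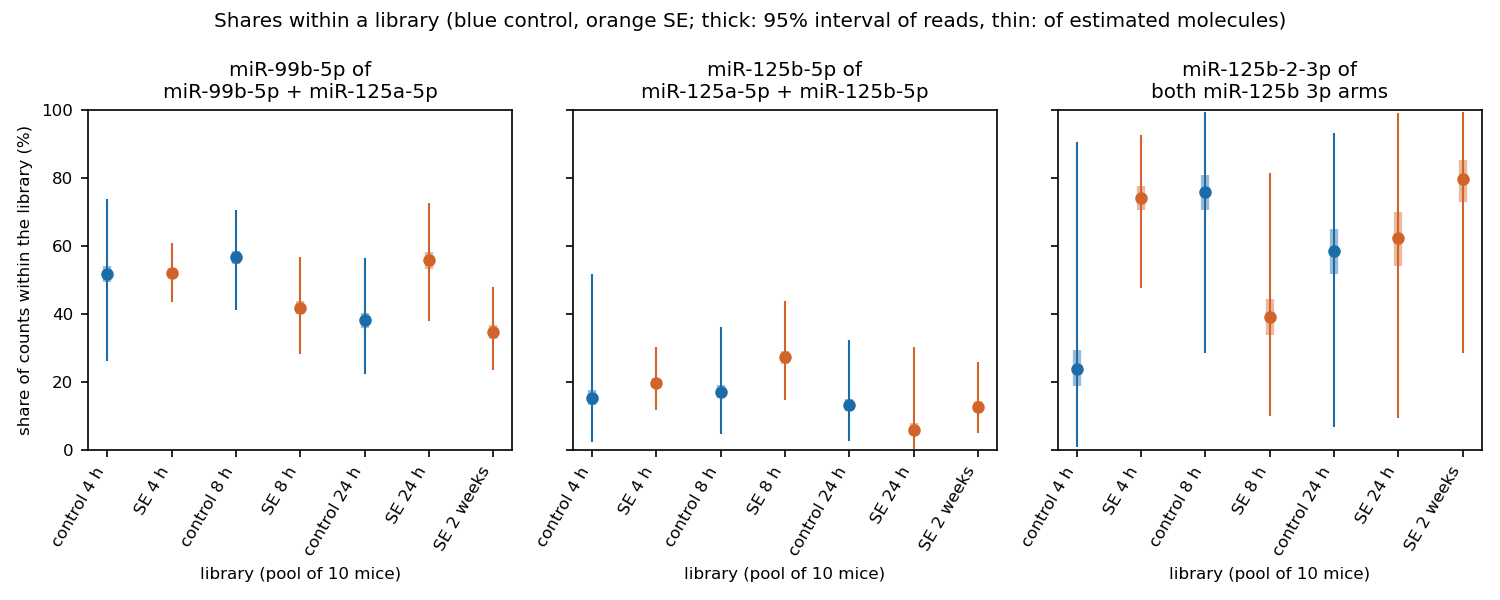
Share of counts within each library, in percent, for 3 pairs of members, with controls in blue and SE in orange. Points are shares of reads, thick bars their exact 95% binomial intervals and thin lines the same intervals on estimated molecules. The share of miR-125b-5p is lowest, 5.75%, in SE 24 h and highest, 27.2%, in SE 8 h, around controls of 13.0% to 17.1%, and that of miR-125b-2-3p from 23.8% in control 4 h to 79.8% in SE 2 weeks.

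The 3p strands are usually the less abundant products of these hairpins. For miR-125b-1-3p the levels were 118 (4 h), 15.5 (8 h) and 23.6 CPM (24 h) in controls, against 37.1 (4 h), 57.7 (8 h), 20.3 (24 h) and 11.3 CPM (2 weeks) after SE. Control 4 h was far above every other library and the remaining controls lay among the SE levels. At 4 h the miRNA was 3.17-fold lower in SE (log2 −1.66, 158 against 205 counts), an estimated 4 molecules against 2. This difference rests on control 4 h. Against control 8 h and control 24 h summed it turned to 0.94, and against the 3 controls summed to 0.02. At 8 h it was 3.71-fold higher in SE (log2 1.89, 210 against 67 counts), an estimated 4 molecules against 1, with an interval from 0.404 to 201, and against all 3 controls summed the log2 difference was 0.66.

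The strand from the other hairpin, miR-125b-2-3p, had 36.7 (4 h), 49.2 (8 h) and 33.2 CPM (24 h) in controls, against 107 (4 h), 36.8 (8 h), 33.5 (24 h) and 44.7 CPM (2 weeks) after SE. SE 4 h was above the other 6 libraries, which covered a range from 33.2 to 49.2 CPM. Its fold at 4 h was 2.90 (454 against 64 counts, log2 1.54), and it was 1.36 on the log2 scale against control 8 h and control 24 h summed. The 64 counts in control 4 h are 0.626 of the clump, and the interval on estimated molecules, 12 against 1, was 0.267 to 77.2. The remaining time-points gave log2 differences of −0.42 at 8 h, 0.01 at 24 h and 0.43 at 2 weeks, all with both libraries under 50 CPM.

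Of the counts of both miR-125b 3p strands, miR-125b-2-3p took 23.8% (4 h), 76.0% (8 h) and 58.5% (24 h) in controls and 74.2% (4 h), 39.0% (8 h), 62.3% (24 h) and 79.8% (2 weeks) after SE. The order of SE and control was opposite at 4 h and 8 h, and the controls alone covered most of the span. For the share over the libraries of 4, 8 and 24 h the exact two-sided permutation test, with 3 libraries a side, gave p = 0.7. Together the 3p strands made up 50.7% (4 h), 38.0% (8 h), 78.6% (24 h) and 46.5% (2 weeks) of all miR-125b counts after SE, with controls between 51.8% and 62.7%. The share in SE 24 h rests on an estimated 3 and 1 molecules (19.4% to 99.4%), and the exact permutation p was 0.9 with 3 libraries a side.

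The least abundant member, miR-125a-3p, had 108 counts in control 4 h (62.0 CPM) and 65 in control 24 h (16.5 CPM), 1 count in SE 2 weeks and 0 in control 8 h, SE 4 h, SE 8 h and SE 24 h. Both counts above 1 were in controls and each was close to 1 clump, 1.06 and 1.18 of it. At 4 h the level was at least 88.0-fold lower in SE against 3 counts (log2 −6.46), and on estimated molecules, 0 against 1, the interval reached from 0 to 5.87. Against control 8 h and control 24 h summed the log2 difference, with SE again at 3 counts, was −3.48, and the miRNA was not among the members compared. The level was at least 15.4-fold lower in SE 24 h than in control 24 h, with both libraries under 50 CPM and an interval of SE over control on estimated molecules, 0 against 1, that held 1. At 2 weeks, with 1 read in SE, the ratio was 50.9-fold lower, with a counting interval of 8.81 to 2039, while on estimated molecules SE over control ran from 0 to 30.0. The 3p strand was 10.7% of all miR-125a counts in control 4 h (95% Clopper-Pearson interval 8.88% to 12.8%). In SE 4 h it was 0%, where 2433 counts of the 5p strand allow up to 0.152%. On estimated molecules the intervals were 0.253% to 44.5% and 0% to 5.52%, which overlap.

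The SE libraries of 4, 8 and 24 h were also compared with the 3 controls as 3 against 3, which treats different time-points as 1 condition. By edgeR's quasi-likelihood test 0% of 137 miRNAs had an adjusted p under 0.05, 17 had an unadjusted p under 0.05, and DESeq2 called 4. Of the members 4 were tested, and 0 were called by either tool or had an unadjusted p under 0.05 in edgeR. The edgeR log2 differences, SE over control, were 1.12 for miR-100-5p, 0.66 for miR-125b-5p, 0.16 for miR-125a-5p and 0.14 for miR-99b-5p, with adjusted p between 0.88 and 0.96. The biological coefficient of variation was 0.587. Without control 4 h the difference of miR-100-5p was 0.55, and with time point as a block it was 1.90. That of miR-125b-5p was 0.18 with the block, 0.25 without SE 8 h and 1.18 without SE 24 h. When miRNAs of every level were tested, miR-125a-3p had an unadjusted edgeR p of 0.00687 and an adjusted p of 0.294. For the 7 members other than miR-100-5p the exact two-sided permutation p of the level was between 0.3 and 1 with 3 libraries a side.

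The chromosome 9 and 16 clusters also hold let-7 genes, but let-7a-5p and let-7c-5p are made from further loci, and let-7a, let-7c and let-7e are within 2 changes of each other, so their counts are uncertain in the same way. Of the 7 let-7 strands listed as partners 6 had counts, and 3 were compared at each time-point. At 8 h let-7a-5p was lower in SE (4351 to 2670 CPM, log2 −0.70) and at 24 h let-7c-5p was lower (3009 to 1989 CPM, log2 −0.60). With control 8 h and control 24 h summed, let-7a-5p (−0.84) and let-7c-5p (−0.67) were lower at 8 h. The 24 h call of let-7c-5p ended with that control (−0.42), and let-7e-5p at 4 h turned from −0.45 to 0.36. Levels of let-7c-5p did not overlap, at 2290 to 3009 CPM in controls and 1683 to 2141 CPM after SE. Over the libraries of 4, 8 and 24 h no overlap was found for 16.8% of 137 miRNAs. By library size alone let-7c-5p in SE 2 weeks (2589) lay above control 4 h (1953). No partner was higher at any time-point. The medians of the 3 were −0.45 (4 h), −0.49 (8 h), −0.12 (24 h) and −0.07 (2 weeks). They cannot be set against the medians of the members, since some members were compared only through the library in which they were high. Of the 3 other strands of the miR-99/100 hairpins, 2 had counts and 0 reached 50 CPM.

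The related miR-10 miRNAs resemble miR-100-5p in sequence with a shifted seed, at 3 changes from it for miR-10a-5p and 4 for miR-10b-5p, more than the 2 mismatches allowed. They differ from each other by 1 base, so their separate levels are uncertain too. Both were higher in SE at 4 h and at 8 h, and miR-10b-5p also at 24 h and 2 weeks. With control 8 h and control 24 h summed, the 2-week call of miR-10b-5p ended (log2 0.39) and the other calls stayed past 1.5-fold. At 2 weeks miR-10b-5p differed by 0.17 from control 8 h and by −0.36 from control 4 h. Levels of miR-10a-5p were 8191 (4 h), 7976 (8 h) and 8804 CPM (24 h) in controls and 20603 (4 h), 13870 (8 h), 10413 (24 h) and 10942 CPM (2 weeks) after SE, without overlap. By library size alone, however, SE 24 h (7853) lay below control 8 h (9745) and control 24 h (10180). Levels of miR-10b-5p overlapped, at 24971 to 50762 CPM in controls and 39534 to 90114 CPM after SE. The other miRNA with the miR-125 seed, miR-351-5p, had 103 (4 h), 165 (8 h) and 226 CPM (24 h) in controls and 238 (4 h), 116 (8 h), 234 (24 h) and 273 CPM (2 weeks) after SE. It was 2.32-fold higher in SE at 4 h, with 2 estimated molecules in control 4 h, and under 1.5-fold at the other time-points. Its log2 difference at 4 h was 0.30, under 1.5-fold, against control 8 h and control 24 h summed. At 8 h that control gave −0.75, lower in SE by more than 1.5-fold.

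The miRNAs most like the leading pair by Pearson correlation of TMM-adjusted log2 CPM were sought among 101 with 50 CPM or more in all 7 libraries. For miR-125a-5p these were miR-140-3p (Pearson r = 0.83 on log2 CPM, Spearman 0.71), miR-27b-3p (0.81 and 0.79) and miR-146a-5p (0.77 and 0.75). For miR-99b-5p they were let-7d-3p (0.92 and 0.93), miR-676-3p (0.88 and 0.86) and miR-181a-2-3p (0.81 and 0.75). By Spearman the top 3 of miR-125a-5p were miR-146b-5p, miR-22-3p and miR-27b-3p, and by library size the most like miR-99b-5p was miR-133a-3p. The leading pair correlated with each other at 0.60 (Spearman 0.57), less than with these, although they come from the same 683 bp. All these values share the 7 libraries and their scaling, and most of the named miRNAs were highest in SE 4 h.

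Markers of cell types that release miRNA into plasma were summed in each library. Of 6 erythrocyte miRNAs, 4 to 6 had counts, and they took 76.4% (4 h), 68.0% (8 h) and 67.6% (24 h) of control counts and 67.9% (4 h), 62.9% (8 h), 76.5% (24 h) and 63.7% (2 weeks) after SE, nearly all of it miR-486b-5p. At 0 were miR-486a-5p in every library but SE 24 h, and miR-144-3p in control 4 h. The erythrocyte share was largest in SE 24 h and control 4 h, through miR-486b-5p. The listed marker miR-451a was instead lowest in control 4 h, at 1.72 CPM (3 counts). It was highest in control 24 h, at 20.5 CPM (81 counts). Of the erythrocyte markers 2 were higher in SE at 4 h and 24 h, and 1 was lower at 8 h and 2 weeks. Their median log2 at 4 h, 4.27, or 3.95 with 0 counts taken at 3, is the midpoint of 2 unlike pairs. In it miR-486b-5p (−0.06) and miR-16-5p (0.32) changed little, while miR-144-3p (1407 counts) and miR-144-5p (779 counts) were set against 0 and 1 read in control 4 h. With control 8 h and control 24 h summed the 2 miR-144 strands were under 1.5-fold at 4 h (0.25 and −0.07), and miR-486b-5p was higher (0.60). That control also ended the 2-week call of miR-144-3p (−0.52). The part of the erythrocyte markers in the member levels was not tested.

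Smooth muscle and fibroblast markers (4 listed) were nearly all miR-143-3p and summed to 12989 (4 h), 11696 (8 h) and 10545 CPM (24 h) in controls and to 41343 (4 h), 19668 (8 h), 12929 (24 h) and 16409 CPM (2 weeks) after SE. SE 4 h, which held the highest level of 5 members, was the highest here too, and miR-199a-3p was at 0 in all 7 libraries. Of the markers compared, miR-143-3p was higher at 4 h, 8 h and 2 weeks, and miR-145a-5p was lower at 4 h. With the summed controls miR-143-3p was still higher at 4 h (log2 1.89) and 8 h (0.82), but under 1.5-fold at 2 weeks (0.56). At 4 h miR-145a-5p turned to 1.87 with that control, with both sides under 50 CPM. The 2 endothelial miRNAs, led by miR-126a-5p, summed to 1207, 1592 and 2275 CPM in the controls and to 2432, 1916, 2530 and 1756 CPM in SE, and both were higher at 4 h only. With the summed controls neither passed 1.5-fold at 4 h, with log2 differences of 0.44 for miR-126a-5p and −0.30 for miR-126a-3p. Neither list's part in the members' levels was tested.

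Of 5 neuronal miRNAs, 2 to 4 had counts, and their sums of 1142 (4 h), 1475 (8 h) and 2286 CPM (24 h) in controls and 1381, 1356, 1859 and 1969 CPM after SE were nearly all miR-128-3p. Neuronal miR-124-3p was at 0 in every library but SE 24 h. At 8 h 2 of 3 compared were higher (miR-9-5p and miR-138-5p), both under 50 CPM in control 8 h and with intervals on estimated molecules that held 1, while miR-128-3p differed by −0.28 on the log2 scale. With the summed controls miR-128-3p was lower at 8 h (log2 −0.63), and miR-9-5p (2.52) and miR-138-5p (2.54) were still higher. At 4 h miR-9-5p was lower, and with the summed controls it turned to 1.23 on the log2 scale, under 50 CPM on both sides. Leukocyte miRNAs, 5 listed and led by miR-142a-5p, summed to 4690, 5807 and 10187 CPM in the controls and to 7433, 5734, 9396 and 10029 CPM in SE, with 2 higher at 4 h and 1 lower at 24 h. Both 4 h calls turned with the summed controls, miR-142a-5p to −0.06 and miR-142a-3p to −0.74. The 24 h call, of miR-142a-3p, also ended with them (−0.54). They gave miR-142a-3p as lower at 8 h (−0.79) and miR-150-5p as higher at 2 weeks (0.86). Of 6 muscle miRNAs 2 had counts, and their sum, led by miR-133a-3p, fell from 888 and 807 CPM in control 4 h and 8 h to 100.1 in control 24 h. In SE it was 1119, 1439, 180.1 and 119 CPM, with miR-133a-3p higher at 8 h, 24 h and 2 weeks. With the summed controls miR-133a-3p was higher at 4 h (log2 1.29) and 8 h (1.68). At 24 h and 2 weeks its direction turned with that control, to −1.32 and −1.95, both lower by more than 1.5-fold. Liver miR-122-5p was at 0 in all 3 controls and SE 8 h and at most 17.8 CPM, in SE 2 weeks. The part of these lists in the member levels was not tested.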

How the data were processed

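Plasma from 10 mice per condition was pooled, Ago2 was immunoprecipitated and small RNA libraries were sequenced, 1 per condition. The authors used Chimera (version not given in the sources used here) for adapter trimming, size selection and a BLASTn match to mouse miRBase that allowed 2 mismatches, and deposited the raw counts per mature miRNA. The submitters' processing notes also name edgeR and limma.

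Counts were analysed in Python 3.11.15 (numpy 2.4.6, pandas 2.3.3, scipy 1.17.1, matplotlib 3.10.9) and R 4.3.3 with edgeR 4.0.16, limma 3.58.1 and DESeq2 1.42.0. TMM factors came from all 7 libraries, totals being 2043220 to 5405357 counts. Folds used a prior count of 0.125 and needed 50 CPM in either library. A fold against 0 counts was computed against 3 counts per library (0.696 to 1.72 CPM), and 1 to 3 counts give a ratio with its counting interval. The plan had taken 1 to 3 counts as a bound too, and this was changed after the data were seen. The control for 2 weeks and the 1.5-fold threshold are the study's, and 50 CPM is its level for organ enrichment. The study also needed p under 0.05, which was left out of the calls here because each comparison has 1 library a side. The clump of low counts is the peak of a smoothed density (bandwidth 0.15) of ln counts between 6 and 300. The quasi-likelihood test needed 50 CPM in at least 3 of the 6 libraries and used Benjamini-Hochberg adjustment over all miRNAs tested. Permutation tests used log2(CPM + 1) and were exact. Shares have 95% Clopper-Pearson intervals. The edgeR steps were tested on simulated data.

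Named miRNAs are all members, the let-7 strands of the clusters, the other strands of the hairpins, counted miRNAs with a member's seed, miR-10a-5p and miR-10b-5p, the 3 miRNAs most correlated with each of the leading pair, and 7 marker lists (erythrocyte, leukocyte, endothelium, liver, muscle, smooth muscle and fibroblast, neuron). The members and lists were chosen with earlier results of these data known. Alternatives were other scalings (library size, DESeq2 size factors, TMM over 2 libraries, totals without the most abundant miRNA), filters of 0 and 100 CPM, a prior count of 2, a 2-fold threshold, edgeR's exact test at a set BCV, other controls, time point as a block and libraries left out. Estimated molecules, TMM without SE 4 h or control 4 h, the sum of control 8 h and control 24 h, and permutation by library size were added after seeing the data. Sequences and positions are from RefSeq for GRCm38.p6 and gene annotation from GENCODE M21.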

Additional observations from a re-analysis of the deposited data

Results flagged for a closer look

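The call of miR-100-5p was higher in SE at 4 h (128-fold) and lower at 2 weeks (log2 −0.90), a difference of 7.90 that was not tested and that rests on 1 read in control 4 h. The same miRNA was higher at 8 h (log2 0.96), which differs from 2 weeks by 1.86, and this difference was not tested either. For miR-125b-1-3p the call was higher in SE at 8 h (log2 1.89) and lower at 4 h (log2 −1.66), a difference of 3.55 between the time-points that was not tested. Against control 8 h and control 24 h summed, a control chosen after seeing the data, its log2 difference at 4 h was 0.94.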

How the results depend on the processing

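Members past 1.5-fold numbered 6 (4 h), 3 (8 h), 1 (24 h) and 3 (2 weeks). At 100 CPM or more these became 3 of 5 at 4 h, 1 of 3 at 8 h and 1 of 2 at 2 weeks, for want of members compared. Of all miRNAs compared at those time-points, 34.8%, 27.9% and 11.4% were higher and 23.5%, 13.1% and 11.4% lower. Without a filter there were 4 of 8 at 24 h, beside 37.4% higher and 36.7% lower of 412 miRNAs. At 2 weeks there were then 6 of 8, beside 36.4% higher and 31.9% lower of 420. At 2-fold there were 0 at 24 h, beside 13.5% higher and 12.8% lower of all miRNAs compared. At 2 weeks there were also 0, beside 7.59% higher and 6.90% lower. By edgeR's exact test at a set BCV of 0.4, which compares 2 libraries and not the conditions, fewer members were called at every time-point. At a BCV of 0.1 the members called were the same as without it. With the 3 controls summed there were 2 of 4 at 24 h and 0 of 3 at 2 weeks. Of all miRNAs compared there, 18.1% were higher and 19.4% lower at 24 h, and 15.6% and 18.4% at 2 weeks. With that control the log2 difference turned to 0.0239 for miR-125b-1-3p at 4 h and to −0.13 for miR-99b-5p at 24 h. With control 8 h and control 24 h summed, an alternative chosen after seeing the data, 1 of 3 was past at 2 weeks and miR-125b-1-3p turned to 0.94 at 4 h. Of all miRNAs compared at 2 weeks, 15.9% were then higher and 17.2% lower. Control 4 h as the control at 2 weeks gave 5.73 for miR-100-5p, −0.22 for miR-125a-5p, −0.51 for miR-125b-5p and −1.24 for miR-99b-5p. With it 3 of 5 members compared were called, all lower (miR-99b-5p, miR-125b-1-3p and miR-125a-3p), beside 41.8% lower and 24.7% higher of 182 miRNAs. With control 8 h miR-99b-5p was also called lower (−0.71) and miR-125a-5p higher (0.60), beside 17.9% lower and 24.8% higher of 145. Intervals on estimated molecules, also added after seeing the data, gave 0 at every time-point. Library size alone moved the median of all miRNAs by −0.11 at 4 h and −0.62 at 24 h, where the higher calls went from 55.6% to 14.8% of all calls and the member called was miR-125a-5p, lower, in place of miR-99b-5p. DESeq2 size factors and TMM over 2 libraries moved the 4 h median by −0.13 and −0.16. At 2 weeks totals without the most abundant miRNA moved it by 0.16 and TMM without SE 4 h by 0.15, each with 72.1% of calls higher against 58.7%, and TMM without control 4 h moved the 8 h median by −0.12. In the fit of 3 against 3 no alternative called a member, with time point as replicate block included. There miR-99b-5p turned to −0.11 by library size and −0.0260 with 2 weeks added, and miR-125a-5p to −0.0303 by library size. Leaving out 1 library at a time gave −0.31 to 0.55 for miR-99b-5p and −0.16 to 0.49 for miR-125a-5p, negative for both without SE 4 h and, at −0.20, for miR-99b-5p without control 24 h. The cause of these shifts was not tested. Of 216 log2 differences recomputed, 19 changed direction. The members with a mean level under 50 CPM rest on an estimated 0 to 12 molecules per library, and the effect of depth was not tested.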

Other observations

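The other strands of the miR-99/100 and let-7 hairpins had low counts. miR-99b-3p counts were 0 (4 h), 63 (8 h) and 59 (24 h) in controls, against 48 (4 h), 0 (8 h), 79 (24 h) and 35 (2 weeks) after SE. Strand let-7c-2-3p had 102 counts (SE 24 h), 26 (SE 8 h) and 24 (SE 2 weeks), with 0 elsewhere, and let-7c-1-3p had 28 in SE 2 weeks alone. In SE 4 h alone miR-99a-3p had counts, 38. Partner let-7e-3p had 52 counts (SE 4 h), 51 (SE 8 h) and 59 (control 24 h), with 0 elsewhere. The largest, let-7c-2-3p in SE 24 h, is 2.26 times the clump of low counts of its library.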
